A study of Mus musculus with 18 samples.

Results

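The DN4 fraction of an NPM-ALK driven mouse lymphoma was compared with healthy LSK cells, and then with the other cell fractions sorted from the same kind of lymphoma. Members were chosen by array title: 3 arrays titled as the DN4 lymphoma subpopulation and 3 titled as healthy LSK cells, which makes 6 of the 18 arrays of the series. The other 12 arrays hold the CLP, DN1, DN2 and DN3 fractions, 3 each. LSK cells are lineage-negative, SCA1-positive and KIT-positive bone marrow cells, a population rich in blood stem and progenitor cells. They were sorted from the marrow of mice given as wildtype, healthy and 18 months old. The DN4 cells came from thymic lymphomas of Lck-Cre transgene mice that had been sublethally irradiated and had received bone marrow infected with a retrovirus carrying NPM-ALK. Lck is a T lineage promoter, and the labels state that the fusion kinase is thereby expressed in early T cells. All lymphoma fractions share the irradiation, the transplant, the transgene and the moribund state, and the titles, tissues and genotypes of the LSK arrays give none of these. The ages of the lymphoma mice are not given. The series design names 3 lymphomas, and whether an array number marks the same lymphoma in each fraction is not stated. P-values here measure the spread between arrays, and the labels do not say whether LSK arrays came from separate or pooled mice.

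Several labels disagree. The free-text descriptions call the LSK arrays aged NIPA knockouts, give LSK replicate 3 an irradiation of 4 Gy, and call the DN4 arrays aged wild type, while the titles, tissues and genotypes give the groups used here. The descriptions also give 4 Gy for all DN1, DN2 and DN3 arrays and for CLP replicates 1 and 2. They give no dose for the DN4 arrays and CLP replicate 3. Sex-linked genes also differed among the LSK arrays: Xist read 3.55, 10.74 and 10.0 and the Y-linked Eif2s3y 8.42, 7.43 and 4.69, against 3.88, 3.81 and 3.81 and 9.19, 8.62 and 9.11 in DN4. Tissue (marrow or thymus), transplant, irradiation and cell type change together between the groups, so their parts in a DN4 to LSK difference cannot be told apart.

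DN4 thymocytes are the last of the double-negative stages, cells that have passed the checkpoint at which the pre-T-cell receptor is tested, and that lack CD4, CD8, CD25 and CD44. Cells answer shortage of amino acids, misfolded protein, oxidants, heat and DNA damage with separate gene programs: ATF4 and its targets for the integrated stress response, XBP1 and ATF6 for the unfolded protein response, NRF2 for oxidants, HSF1 for heat and p53 for DNA damage. In the thymus, Notch signals start and hold the T cell fate, and the pre-T-cell receptor then switches on CD4 and CD8.

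The sort markers matched the DN4 label in part. Il2ra, which encodes CD25, read 8.66, 8.61 and 8.85 in DN4 against 12.14, 11.87 and 12.05 in DN3, so it was low against DN3 but above array background. Cd44 read 4.54, 4.68 and 4.89 in DN4, in the background range. Kit read 8.35, 8.06 and 8.18 in DN4 and 10.69, 10.79 and 11.21 in LSK, so DN4 kept a Kit signal. The background range was taken from probe sets of olfactory receptor genes, which blood cells hardly use: their 95th percentile lay between 5.36 and 5.71 on the 18 arrays. Cd34, Flt3 and Meis1 marked the LSK arrays, at 11.20, 11.03 and 11.08 for Cd34. Of 14 core T cell surface genes 10 to 12 were above background on the LSK arrays, with a summed level of 10.72 to 11.24 (log2) against 14.53 to 14.72 in DN4. Most of these genes thus had some signal in LSK, while Cd3g and Thy1 were in the background range on every LSK array. Several sets of markers of other cells moved with the groups. Summed granulocyte and mast cell signal was 12.26 to 12.86 in LSK, with 9 to 15 of 18 markers above background, and 9.90 to 10.00 in DN4, with 4 to 6. Macrophage and monocyte signal was 11.19 to 11.60 in LSK and 10.10 to 10.14 in DN4, and erythroid and megakaryocyte signal 10.84 to 11.22 and 8.72 to 8.81. Summed NK and cytotoxic signal was higher in DN4, at 10.80 to 11.25 in LSK and 11.73 to 12.08 in DN4, as was that of stroma and thymic epithelium, at 10.79 to 10.98 and 12.82 to 13.08. No more of these markers were above background in DN4: 7 to 8 of 17 NK markers in LSK and 7 in DN4. For stroma it was 8 of 15 in LSK and 6 to 7 in DN4. The median differences of these lists were -0.29 and 0.07. Sums of linear signal can be set by a few bright genes, here Gzma and Pdgfrb. B and plasma cell signal overlapped, at 11.77 to 13.13 and 11.83 to 11.86. The part of these cells in the results below was not tested.

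The genes with the largest measured rises from LSK to DN4 were Cd3g and Cd3e, chains of the CD3 part of the T cell receptor complex, then Gzma, which encodes the protease granzyme A, and Cd3d, a further CD3 chain. The largest measured falls were those of Ctla2a, which encodes an inhibitor of cathepsin-type proteases, the inhibitory receptor gene Lilrb4a, Adgrl4 and Ctla2b. Meis1, a transcription factor of stem cells, was also among the 10 largest falls, and the receptor gene Slamf6 among the 10 largest rises. Cd3g read 4.67, 4.97 and 4.26 in LSK and 12.39, 12.54 and 12.62 in DN4, at least 134-fold higher (SE 0.17, adjusted p = 3.2e-10). Gzma read 4.50, 4.04 and 4.62 in LSK and 11.15, 11.04 and 11.56 in DN4, at least 55.9-fold higher (SE 0.18, adjusted p = 7.1e-10). In each case all 3 LSK arrays were in the background range and all 3 DN4 arrays far above it. Ctla2a read 12.48, 12.31 and 12.74 in LSK and 4.22, 5.24 and 5.52 in DN4, at least 123-fold lower (SE 0.27, adjusted p = 5.0e-09). The other genes named by size of rise were Ifi204 (6.13, at least 19.7-fold), Smok4a (5.96, at least 49.2-fold), Endou (5.88, at least 38.8-fold), Upk1b (5.53, at least 23.8-fold) and Mpzl2 (5.52, at least 21.7-fold), given as DN4 minus LSK on the log2 scale with the bound where 1 group was in background. Those named by size of fall were Lilrb4a (-7.01, at least 40.1-fold), Adgrl4 (-6.95, at least 34.1-fold), Ctla2b (-6.84, at least 90.7-fold), Rgs18 (-6.38, at least 18-fold), Cd63 (-6.26, DN4 above background on 2 of 3 arrays), Neurl3 (-6.25), Meis1 (-5.99, at least 27.9-fold), Car2 (-5.93, at least 18.6-fold) and Csf2rb2 (-5.92, at least 26.6-fold). By the rule that chose them, none of the 20 genes overlapped between the groups. A bound written as at least N-fold sets the dim group at the background of each array, because a signal there has no measured lower level. In a sorted bulk sample, fewer cells of a type and less RNA per cell cannot be told apart.

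With limma (lmFit and eBayes, adjusted p under 0.05 over 22180 genes), 5908 genes differed between DN4 and LSK, which is 26.6% of the genes tested. Of these 2612 were higher in DN4 (11.8%) and 3296 lower (14.9%), and 2067 differed by at least 2-fold. The median gene differed by 0.05. Counts of list members are read against these shares. The lists were chosen with earlier results of these data known, so the shares are a reference and not an independent test. Of 157 measured stress genes in 7 lists, 80 fell and 23 rose, with a median difference of -0.48. Of 86 measured T cell genes in 5 lists, 57 rose and 11 fell, with a median of 1.09. The plot of list members shows the spread behind these medians: in each stress list a tail of genes lay far below 0 while others moved little or rose.

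**Figure D1:**
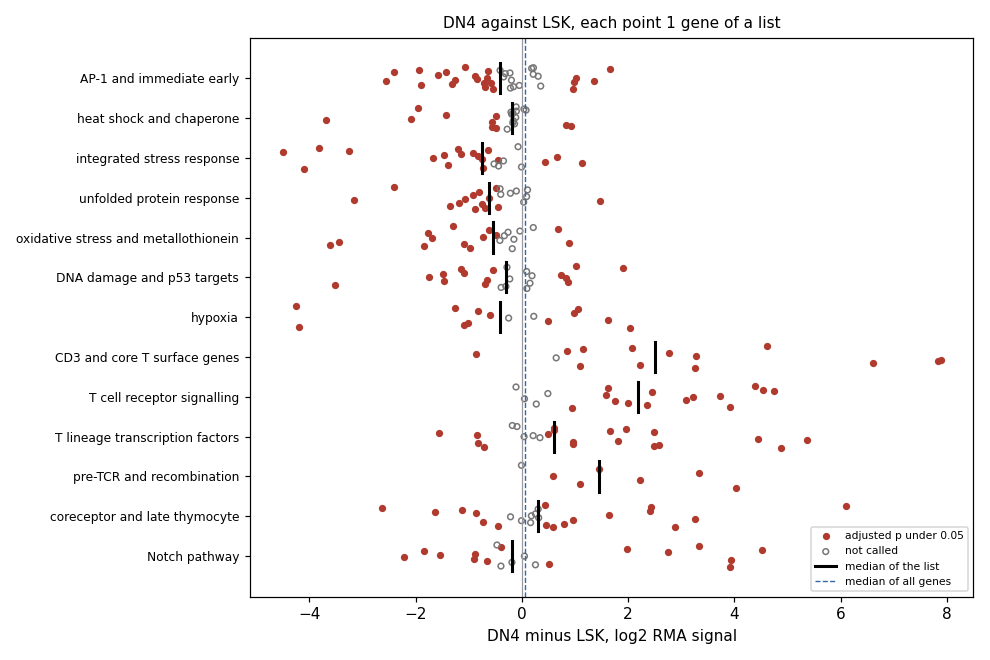
Difference between DN4 and LSK (x axis, log2 RMA signal, mean of 3 arrays minus mean of 3 arrays) for each gene of 13 lists (rows); filled points passed limma at adjusted p under 0.05, open points did not, black bars mark list medians and the dashed line the median of all genes. The 5 T cell lists have medians from 0.31 to 2.50, the 7 stress lists from -0.76 to -0.18.

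The integrated stress response list had the lowest median of the 7 stress lists. Of 23 measured members (25 listed), 15 fell, 3 rose and 5 did not pass the test, with a median of -0.76. The genes with the largest falls were Slc7a11, which encodes the cystine importer, Asns, the enzyme that makes asparagine, Vldlr, a lipoprotein receptor, and Slc7a3, an importer of cationic amino acids. Promoters of such genes are known to carry the amino acid response element, the site that ATF4 with a C/EBP partner reads. The promoter stretches of Asns, Slc7a11, Chac1 and Vldlr are printed because they hold that element upstream of the start in genes that fell. They are from RefSeq (GRCm38.p6), given 5′ to 3′ on the strand of the gene, with the match in capitals.
Asns: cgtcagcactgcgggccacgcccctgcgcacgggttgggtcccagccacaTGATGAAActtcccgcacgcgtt
Slc7a11: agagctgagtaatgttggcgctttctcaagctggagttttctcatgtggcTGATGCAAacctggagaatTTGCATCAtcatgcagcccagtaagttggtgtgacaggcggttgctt
Chac1: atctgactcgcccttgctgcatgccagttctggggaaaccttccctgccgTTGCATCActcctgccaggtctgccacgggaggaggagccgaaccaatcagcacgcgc
Vldlr: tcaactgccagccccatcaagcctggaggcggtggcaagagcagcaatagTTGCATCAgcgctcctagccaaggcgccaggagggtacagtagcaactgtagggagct
The Asns stretch lies at chr6:7693210-7693282, minus strand, with the match starting 23 bases before the annotated start. The Slc7a11 stretch (chr3:50443614-50443729, minus strand) holds the element once in each orientation, starting 66 and 47 bases before the start. The Chac1 stretch is at chr2:119350999-119351106, plus strand and the Vldlr stretch, which belongs to the downstream of its annotated starts, at chr19:27216770-27216877, plus strand. The motif searched was TGATGNAA or its reverse complement TTNCATCA, on both strands, in the window from 250 bases before to 50 after each start. It occurred in 3.97% of 32851 RefSeq promoters, or in a promoter of 4.51% of genes, and in 7 of the 20 list genes with a promoter entry: Asns, Chac1, Gars, Nupr1, Slc7a11, Trib3 and Vldlr, all of which fell. The Gars call ended without any 1 of LSK replicate 1 or DN4 replicate 1 (adjusted p = 0.06 to 0.068). A match of letters is a description of the sequence, and binding was not measured.

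Asns read 9.65, 9.49 and 9.77 in the LSK arrays and 5.51, 5.36 and 5.75 in the DN4 arrays, a difference of -4.09 (SE 0.14, adjusted p = 3.0e-09, DN4 above background on 1 of 3 arrays). LSK was high and even, and DN4 sat at the edge of background. Slc7a11 read 9.29, 8.17 and 7.75 in LSK and 3.68, 4.0 and 4.02 in DN4, at least 7.14-fold lower (SE 0.31, adjusted p = 6.3e-07). LSK replicate 1 was the highest by over 1 log2 unit, and no array of one group came near the other. Vldlr read 8.28, 8.97 and 9.58 in LSK and 4.93, 5.19 and 5.24 in DN4, at least 10.4-fold lower (SE 0.26, adjusted p = 6.5e-07). Slc7a3 read 8.18, 7.13 and 7.73 in LSK and 4.11, 4.38 and 4.79 in DN4, at least 4.32-fold lower (SE 0.25, adjusted p = 1.6e-06). For Slc7a11, Vldlr and Slc7a3 all DN4 arrays were within background. A second, dimmer Slc7a11 probe set was at background in both groups. Smaller falls were measured for the stress regulators Trib3 (-1.20, adjusted p = 2.8e-04), Sesn2 (-1.46, adjusted p = 4.0e-05) and Nupr1 (-1.68, adjusted p = 4.2e-05, DN4 above background on 1 of 3 arrays), and for Chac1, which degrades glutathione (-1.39, adjusted p = 1.0e-04, DN4 above background on 2 of 3 arrays). Genes of serine and one-carbon metabolism fell less: Shmt2 by 1.15, Psat1 by 0.82 and Mthfd2 by 0.76. Atf4 itself read 11.70, 11.61 and 11.68 in LSK and 10.91, 10.94 and 10.93 in DN4, a fall of 1.67-fold (adjusted p = 4.6e-04). Transcript level says little about ATF4 protein, which is mainly set by translation. Ddit4, an inhibitor of mTORC1 signalling, went the other way, from 6.64, 6.80 and 6.61 to 7.66, 8.07 and 7.71 (1.13, adjusted p = 9.6e-05). Ddit3, which encodes CHOP, differed by -0.52 and Atf5 by -0.01, and neither passed (adjusted p = 0.091 and 0.97). The other rises, Phgdh (0.66) and Eif2ak3 (0.44), and the fall of Slc7a5 (-0.64) were lost when single arrays were left out. Without DN4 replicate 1, Phgdh, Slc7a5 and Eif2ak3 did not pass (adjusted p = 0.058 to 0.079). Phgdh did not pass without DN4 replicate 2 (adjusted p = 0.077). Without DN4 replicate 3, Phgdh, Slc7a5 and Eif2ak3 did not pass (adjusted p = 0.056 to 0.075). Slc7a5 did not pass without LSK replicate 1 (adjusted p = 0.061). Without LSK replicate 2, Eif2ak3 did not pass (adjusted p = 0.051). Eif2ak3 did not pass without LSK replicate 3 (adjusted p = 0.069).

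In the unfolded protein response list, of 21 measured members (22 listed), 13 fell, 1 rose and 7 did not pass the test, with a median of -0.61. The sensor gene Ern1 and the transcription factor gene Xbp1, whose mRNA the ERN1 protein splices, had the largest falls, and Edem1, which feeds misfolded glycoproteins to degradation, was the member that rose. Ern1 read 10.83, 11.44 and 10.57 in LSK and 7.70, 7.87 and 7.78 in DN4, 8.98-fold lower (SE 0.19, adjusted p = 2.7e-07). Xbp1 read 11.58, 11.07 and 11.30 in LSK and 8.79, 8.92 and 8.98 in DN4, 5.33-fold lower (SE 0.15, adjusted p = 2.6e-07). All DN4 arrays lay below all LSK arrays for both, and well above background. Edem1 read 10.15, 9.68 and 10.00 in LSK and 11.40, 11.33 and 11.48 in DN4, 2.75-fold higher (SE 0.14, adjusted p = 1.3e-05). Among the chaperones and foldases of the endoplasmic reticulum, Creld2 (-1.36, adjusted p = 1.9e-04), Dnajb9 (-1.18, adjusted p = 1.8e-04), Hyou1 (-0.92, adjusted p = 7.5e-04) and Pdia6 (-0.81, adjusted p = 0.0022) fell. Hspa5, which encodes BiP, read 10.46, 10.03 and 10.20 in LSK and 10.34, 10.25 and 10.36 in DN4, and the groups overlapped (95% interval of the difference -0.21 to 0.39). The probe sets do not tell spliced from unspliced Xbp1. The Creld2 promoter is printed as a member of the group that holds the endoplasmic reticulum stress element.
Creld2: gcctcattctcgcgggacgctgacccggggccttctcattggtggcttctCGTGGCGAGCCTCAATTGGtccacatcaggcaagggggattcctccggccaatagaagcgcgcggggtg
It lies at chr15:88819470-88819588, plus strand in GRCm38.p6, on the strand of the gene. The capitals mark the element, CCAAT and CCACG 9 bases apart (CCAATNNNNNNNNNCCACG), here in reverse orientation. It occurred in 0.119% of the promoters (0.137% of genes) and in 8 of the 18 list genes with one: Calr, Canx, Creld2, Dnajc3, Hsp90b1, Hspa5, Pdia6 and Syvn1. Of these 8, 6 fell, and Hspa5 and Dnajc3 (0.03) did not pass. The Syvn1 call ended without any 1 of LSK replicate 1 or DN4 replicate 3 (adjusted p = 0.057 to 0.069).

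Oxidant defence genes moved in both directions: several fell, while those of glutathione reductase and thioredoxin rose. Of 20 measured members (23 listed), 11 fell, 2 rose and 7 did not pass the test, with a median of -0.55. Gclm and Gclc, the subunits of the enzyme that starts glutathione synthesis, Hmox1, which breaks down haem, and Nqo1, a quinone reductase, fell. Gsr, which regenerates glutathione, and Txn1, thioredoxin itself, rose. Gclm read 10.40, 9.78 and 10.02 in LSK and 6.29, 6.69 and 6.37 in DN4, 12.3-fold lower (SE 0.17, adjusted p = 3.9e-08). Hmox1 read 9.52, 8.03 and 8.92 in LSK and 4.94, 5.61 and 5.59 in DN4, a difference of -3.44 (SE 0.31, adjusted p = 7.5e-06, DN4 above background on 1 of 3 arrays). Nqo1 read 7.50, 6.11 and 6.14 in LSK and 4.68, 4.70 and 5.06 in DN4, at least 2.03-fold lower (SE 0.31, adjusted p = 0.0012). All DN4 arrays were in background for Nqo1 and near it for Hmox1, and LSK replicate 1 was the highest of the LSK arrays for all 3 genes. Gclc (-1.84), Mafg (-1.69), Txnrd1 (-1.29) and Gpx1 (-1.10) fell with adjusted p from 2.3e-06 to 1.2e-04. Fth1, the ferritin heavy chain that stores iron, read 12.44, 11.94 and 11.86 in LSK and 10.98, 11.13 and 11.21 in DN4, a difference of -0.98 (SE 0.16, adjusted p = 8.0e-04). Gsr read 8.61, 8.90 and 7.94 in LSK and 9.37, 9.44 and 9.30 in DN4, a difference of 0.89 (SE 0.21, adjusted p = 0.0077), and Txn1 9.07, 8.74 and 9.09 in LSK and 9.59, 9.42 and 9.92 in DN4, a difference of 0.68 (SE 0.16, adjusted p = 0.0081). Catalase (Cat) read 11.26, 9.97 and 10.06 in LSK and 10.20, 10.29 and 10.26 in DN4, overlapping, with only LSK replicate 1 high. The Gclm promoter is shown with its match to the antioxidant response element.
Gclm: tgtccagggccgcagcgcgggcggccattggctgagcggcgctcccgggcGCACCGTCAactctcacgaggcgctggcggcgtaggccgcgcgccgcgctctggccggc
It lies at chr3:122245373-122245481, plus strand. The capitals mark TGACNNNGC in reverse orientation (GCNNNGTCA). That element is short and common: it occurred in 12.4% of promoters (14% of genes) and in 7 of the 16 list genes with one, 5 of which fell. The Nfe2l2 call ended without any 1 of LSK replicate 1, LSK replicate 3 or DN4 replicate 3 (adjusted p = 0.061 to 0.085). The Srxn1 call ended without any 1 of LSK replicate 1, DN4 replicate 1, DN4 replicate 2 or DN4 replicate 3 (adjusted p = 0.072 to 0.14).

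In the heat shock list the inducible HSP70 genes Hspa1a and Hspa1b fell furthest, and other chaperones moved in both directions or did not pass. Of 22 measured members (25 listed), 8 fell, 2 rose and 12 did not pass the test, with a median of -0.18, close to the 0.05 of all genes. Both were followed by Hsph1 and Hspa4l, which exchange nucleotides on HSP70. Hspa1a read 9.01, 7.60 and 8.43 in LSK and 4.75, 4.60 and 4.62 in DN4, at least 6.86-fold lower (SE 0.27, adjusted p = 1.3e-06). Hspa1b read 7.17, 6.21 and 7.33 in LSK and 4.53, 4.62 and 5.28 in DN4, at least 2.53-fold lower (SE 0.28, adjusted p = 1.6e-04). All DN4 arrays were within background for both genes. These genes are near-identical copies, so their probe sets may share signal. Their printed promoter stretches, which hold a heat shock element (capitals), are the same in all 108 bases.
Hspa1a: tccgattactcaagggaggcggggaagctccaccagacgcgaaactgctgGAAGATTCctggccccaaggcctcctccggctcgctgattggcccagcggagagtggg
Hspa1b: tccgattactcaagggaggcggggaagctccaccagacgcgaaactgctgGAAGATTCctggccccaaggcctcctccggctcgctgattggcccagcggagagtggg
The stretches lie at chr17:34972203-34972310, minus strand, and chr17:34959285-34959392, minus strand. The motif searched was GAANNTTC, which is its own reverse complement. It occurred in 7.86% of promoters (9.04% of genes) and in 10 of the 18 list genes with one, of which 5 fell and 0 rose. The Bag3 call ended without any 1 of LSK replicate 1, LSK replicate 3, DN4 replicate 1 or DN4 replicate 3 (adjusted p = 0.058 to 0.073). Hsph1 read 9.64, 8.98 and 9.11 in LSK and 7.62, 7.33 and 6.93 in DN4, a difference of -1.95 (SE 0.20, adjusted p = 2.5e-05), with a gap of over 1 log2 unit between the groups. Hspa8, the constitutive HSP70, read 11.95, 11.71 and 11.61 in LSK and 11.57, 11.50 and 11.62 in DN4, overlapping, with a 95% interval of the difference of -0.48 to 0.09. Hspa4, a further HSP70 relative, fell (-0.49). Hsp90aa1 differed by -0.16, Hspb1 by -0.21 and Hspd1 by 0.08, and none of the 3 passed. Dnajb1, an HSP40 partner of HSP70, and Cryab (0.92, LSK above background on 1 of 3 arrays), a small heat shock protein gene, rose, Dnajb1 from 8.29, 8.08 and 8.12 to 8.92, 8.95 and 9.13, a difference of 0.84 (SE 0.12, adjusted p = 3.8e-04).

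The immediate early genes moved in both directions, also among the subunits of AP-1. Of 35 measured members (36 listed), 17 fell, 5 rose and 13 did not pass the test, with a median of -0.41. Fos, Fosb and Jun, subunits of the AP-1 transcription factor, and the kinase gene Sgk1 were higher in DN4, whereas Fosl2, Nr4a1, Nr4a2, Egr1, Klf6 and the phosphatase gene Dusp5 were lower. Jun read 9.21, 8.79 and 9.15 in LSK and 10.35, 10.09 and 9.79 in DN4, 2.04-fold higher (SE 0.17, adjusted p = 7.7e-04). Fosb read 7.24, 6.34 and 6.95 in LSK and 8.76, 7.95 and 7.89 in DN4, a difference of 1.36 (SE 0.26, adjusted p = 0.0022), and Fos 6.62, 6.05 and 6.47 in LSK and 7.57, 7.29 and 7.23 in DN4, a difference of 0.98 (SE 0.16, adjusted p = 8.9e-04). All DN4 arrays were above all LSK arrays for these 3 genes. Fosl2 read 9.03, 9.01 and 9.51 in LSK and 6.48, 6.61 and 6.78 in DN4, 5.9-fold lower (SE 0.16, adjusted p = 2.7e-07). Nr4a2, an orphan nuclear receptor, read 6.97, 7.20 and 7.80 in LSK and 4.67, 5.05 and 5.04 in DN4, at least 3.38-fold lower (SE 0.20, adjusted p = 3.7e-06), with every DN4 array in background. Nr4a1, which T cell receptor signals induce, read 9.53, 9.30 and 10.17 in LSK and 8.28, 8.22 and 8.22 in DN4, a difference of -1.43 (SE 0.19, adjusted p = 1.8e-04). The other named falls were Rhob (-1.93), Dusp5 (-1.89), Klf6 (-1.59), Egr1 (-1.32) and Zfp36 (-1.08), the last a gene for a protein that speeds mRNA decay. Junb read 9.78, 9.50 and 10.17 in LSK and 9.23, 9.31 and 8.93 in DN4, a difference of -0.66 (SE 0.18, adjusted p = 0.017), and the call was lost without DN4 replicate 3 (adjusted p = 0.073). The AP-1 site TGANTCA occurred in 7.81% of promoters (8.97% of genes) and in 2 of 31 list genes with one, Csrnp1 and Tnfaip3, neither of which passed.

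Among p53 targets the cell cycle inhibitor gene Cdkn1a fell far below LSK while several others rose. Of 22 measured members (26 listed), 9 fell, 5 rose and 8 did not pass the test, with a median of -0.29. Cdkn1a, which encodes p21, read 11.01, 10.42 and 11.32 in LSK and 7.16, 7.38 and 7.65 in DN4, 11.5-fold lower (SE 0.21, adjusted p = 2.5e-07). The groups were separated by over 2 log2 units and DN4 stayed above background. Gadd45b read 9.52, 8.98 and 9.08 in LSK and 7.75, 7.69 and 7.77 in DN4, a difference of -1.46 (SE 0.15, adjusted p = 2.1e-05). Plk3, a polo-like kinase gene, read 7.75, 7.82 and 8.56 in LSK and 6.52, 6.57 and 6.59 in DN4, a difference of -1.48 (SE 0.19, adjusted p = 1.3e-04). The death genes Tnfrsf10b (-1.14, DN4 above background on 1 of 3 arrays), Pmaip1 (-1.09), which encodes NOXA, and Perp (-1.75, at least 1.96-fold) fell as well, Perp to background. Trp53inp1, a p53 cofactor, read 8.45, 8.47 and 8.25 in LSK and 10.29, 10.29 and 10.31 in DN4, 3.76-fold higher (SE 0.12, adjusted p = 3.3e-07), with DN4 arrays within 0.1 of each other. Zmat3 (1.03), Fas (0.86), Mdm4 (0.83) and Plk2 (0.74) also rose. Mdm2, the ligase that p53 induces against itself, differed by -0.23 (95% interval -0.52 to 0.07) and did not pass.

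Hypoxia genes differed in both directions. Of 14 measured members (16 listed), 7 fell, 5 rose and 2 did not pass the test, with a median of -0.42. Vegfa, the vascular growth factor, read 10.01, 10.36 and 10.20 in LSK and 5.88, 6.11 and 5.80 in DN4, 19.2-fold lower (SE 0.14, adjusted p = 2.1e-09). Bhlhe40, a transcriptional repressor, read 10.03, 10.03 and 10.78 in LSK and 6.09, 6.37 and 5.77 in DN4, 18.4-fold lower (SE 0.22, adjusted p = 6.5e-08). Both were near background in DN4 and high in all LSK arrays. Adm, which encodes adrenomedullin, read 5.36, 4.87 and 4.93 in LSK and 7.35, 6.76 and 7.16 in DN4, a difference of 2.04 (SE 0.18, adjusted p = 5.7e-06, LSK above background on 1 of 3 arrays). Egln3, an oxygen-sensing prolyl hydroxylase gene, read 8.65, 8.55 and 8.99 in LSK and 10.23, 10.43 and 10.36 in DN4, a difference of 1.61 (SE 0.14, adjusted p = 5.5e-06). Pdk1 (1.06), which encodes a kinase that inhibits pyruvate dehydrogenase, and Ndrg1 (0.99) rose too, and the glucose transporter gene Slc2a1 (-1.27) fell. Hif1a differed by -0.25 and Ldha by 0.22, neither past the test.

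**Figure D2:**
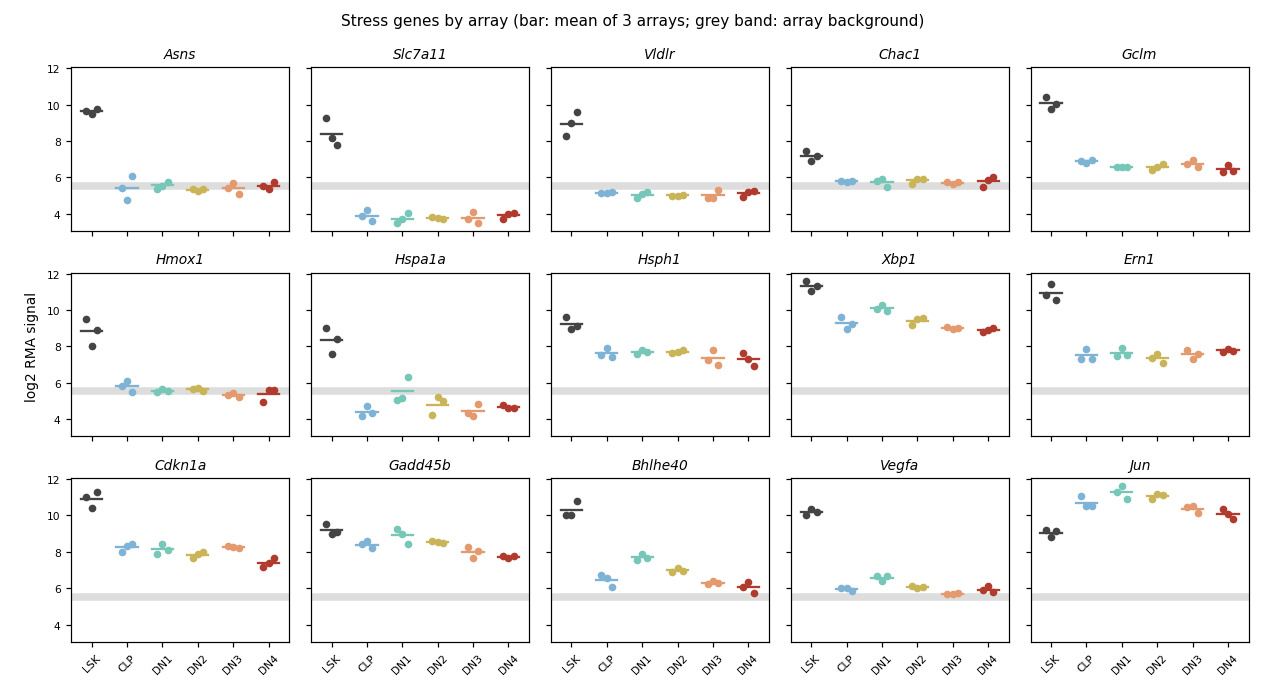
Log2 RMA signal (y axis) of 15 stress genes on each array, by group (x axis); each point is 1 array, bars are means of 3 arrays, and the grey band is the background range. For Asns, Slc7a11, Vldlr, Chac1, Hmox1 and Hspa1a the 5 lymphoma fractions sit together at or near the band, far below LSK, Cdkn1a is lowest in DN4, Gadd45b and Bhlhe40 are lowest in DN3 and DN4, and Jun is above LSK in every fraction.

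Stress gene medians lay below LSK in all 5 lymphoma fractions. The genes lower in DN4 than in the mean of the other 4 fractions included Cdkn1a, Gadd45b, Gadd45g, Jun, Junb and Bhlhe40. None of them passed against DN3 alone. Over the 157 stress genes the median difference from LSK was -0.48 in DN4, against -0.47 in DN3, -0.37 in DN2, -0.34 in DN1 and -0.45 in CLP. All 5 values share the same LSK arrays. Of the 80 stress genes that fell in DN4, DN4 was the lowest fraction for 24 (30%), DN3 for 17, CLP for 16, DN1 for 13 and DN2 for 10. Among all 3296 genes that fell, DN4 was lowest for 25.2%. By list, DN4 was the lowest fraction for 5 of 9 p53 targets that fell, 5 of 13 unfolded protein response genes and 3 of 15 integrated stress response genes. Slc7a11 was in background and Asns at its edge in every lymphoma fraction, with means of 5.39 in DN3, 5.33 in DN2, 5.56 in DN1 and 5.42 in CLP for Asns, so the fractions cannot be ranked in these genes. Genes above background allow a comparison. Ern1 had means of 7.57 in DN3, 7.35 in DN2, 7.65 in DN1 and 7.51 in CLP and 7.78 in DN4, a difference from the other fractions of 0.26 (95% interval -0.05 to 0.57). Gclm had means of 6.74 in DN3, 6.56 in DN2, 6.58 in DN1 and 6.88 in CLP and 6.45 in DN4 (-0.24, -0.48 to -0.01), and Atf4 10.99 in DN3, 10.91 in DN2, 10.80 in DN1 and 11.19 in CLP and 10.93 in DN4 (-0.05, -0.31 to 0.22). None of the 3 passed over all genes (adjusted p = 0.53 to 0.97).

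DN4 was then set against the mean of the other 4 fractions in 1 limma model of the 15 lymphoma arrays, which uses no LSK array. In it 1.97% of genes were called, 205 higher (0.924%) and 231 lower (1.04%). Of the 157 stress genes 12 were lower in DN4 and 2 higher. Cdkn1a read 7.16, 7.38 and 7.65 in DN4 and had means of 8.29 in DN3, 7.85 in DN2, 8.14 in DN1 and 8.25 in CLP, a difference of -0.74 (SE 0.13, adjusted p = 0.0041). Bhlhe40 read 6.09, 6.37 and 5.77 in DN4 against 6.30 in DN3, 7.0 in DN2, 7.70 in DN1 and 6.44 in CLP (-0.78, adjusted p = 0.0041). Gadd45b read 7.75, 7.69 and 7.77 against 7.99 in DN3, 8.56 in DN2, 8.91 in DN1 and 8.40 in CLP (-0.73, adjusted p = 0.012). Cdkn1a was lowest in DN4, while Bhlhe40 and Gadd45b were lower in DN3 and DN4 than in DN1 and DN2. Sgk1, Jun and Fas rose against LSK in DN4 but less than in the other fractions, with differences from their mean of -1.29, -0.79 and -0.76. Gadd45g (-1.13), Junb (-0.80), Xbp1 (-0.55), Klf6 (-0.51), Mt1 (-0.48) and Fth1 (-0.41) were lower as well. Plk2, a polo-like kinase gene and p53 target, went the other way: it read 7.63, 7.51 and 7.50 in DN4, 7.29 in DN3, 6.61 in CLP, 5.26 in DN1 and 4.78 in DN2, a difference of 1.56 (SE 0.12, adjusted p = 5.1e-07). Ndrg1 was also higher (0.89). Without DN4 replicate 1, Klf6, Xbp1, Mt1, Fth1, Cdkn1a, Fas, Gadd45b and Gadd45g did not pass (adjusted p = 0.075 to 0.31). Jun, Klf6, Xbp1, Fth1, Fas, Gadd45b and Gadd45g did not pass without DN4 replicate 2 (adjusted p = 0.064 to 0.36). Without DN4 replicate 3, Jun, Junb, Klf6, Xbp1, Mt1, Fth1, Fas, Gadd45b, Gadd45g and Bhlhe40 did not pass (adjusted p = 0.069 to 0.17). The Fas call also ended without any 1 of DN1 replicate 1, DN2 replicate 1, DN2 replicate 2, DN2 replicate 3, DN3 replicate 1, DN3 replicate 2 or DN3 replicate 3 (adjusted p = 0.052 to 0.083). The Fth1 call also ended without any 1 of DN1 replicate 1, DN2 replicate 1, DN2 replicate 3, DN3 replicate 1 or DN3 replicate 2 (adjusted p = 0.058 to 0.071). The Gadd45g call also ended without any 1 of DN2 replicate 2 or DN2 replicate 3 (adjusted p = 0.053 to 0.055). The Xbp1 call also ended without any 1 of DN1 replicate 1, DN1 replicate 2, DN2 replicate 2, DN2 replicate 3, DN3 replicate 1, DN3 replicate 2 or DN3 replicate 3 (adjusted p = 0.051 to 0.068).

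No stress gene passed the test between DN4 and DN3. Between them limma called 1 gene, Il2ra, 0.00451% of those tested, which is the gene of the sort marker CD25 and not a result. At an unadjusted p under 0.05 there were 659 of 22180 genes, less than the share of 0.05 that would pass on average if no gene differed. The spread in this test came from all 15 lymphoma arrays, among them the uneven CLP arrays. The test was not re-run without CLP, so the low count is not a measure of how alike DN4 and DN3 are. The difference in Cdkn1a was -0.90 (95% interval -1.25 to -0.54, adjusted p = 0.41), in Gadd45b -0.25 (-0.65 to 0.15), in Bhlhe40 -0.23 (-0.60 to 0.15) and in Plk2 0.25 (-0.07 to 0.57). The Cdkn1a interval leaves out 0 while the adjusted p over all genes does not pass. Missing the threshold does not show that the fractions are alike. Without DN3 replicate 1 there were 2 calls, Il2ra and Ces2g, a carboxylesterase gene named after its value was seen.

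The CD3 chains and most other core T cell surface genes were higher in DN4 than in LSK. Of 14 measured members (15 listed), 1 fell, 12 rose and 1 did not pass the test, with a median of 2.50. Cd3e read 5.46, 4.79 and 5.03 in LSK and 12.83, 12.94 and 12.98 in DN4, a difference of 7.82 (SE 0.17, adjusted p = 3.2e-10, LSK above background on 1 of 3 arrays). Thy1, the pan-T surface protein, read 5.33, 4.51 and 5.05 in LSK and 9.61, 9.61 and 9.54 in DN4, at least 17.6-fold higher (SE 0.18, adjusted p = 1.0e-08). Cd5, a receptor that tracks the strength of receptor signals in thymocytes, read 6.45, 6.49 and 6.25 in LSK and 9.72, 9.66 and 9.64 in DN4, 9.69-fold higher (SE 0.12, adjusted p = 5.9e-09). LSK was at or near background for Cd3e and Thy1, and low but measurable for Cd5. Cd2 (3.26), Cd6 (2.76), Cd28 (2.23, LSK above background on 1 of 3 arrays) and Ly9 (2.07) rose as well. Cd52 was the member that fell, to background (-0.86, at least 1.68-fold), and Cd48, present in LSK, did not pass (0.65, adjusted p = 0.057).

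Kinases, adaptors and exchange factors that act beneath the receptor were mostly higher. Of 18 measured members (21 listed), 0 fell, 14 rose and 4 did not pass the test, with a median of 2.18. Zap70, the kinase that binds phosphorylated CD3 chains, read 6.26, 5.77 and 5.96 in LSK and 10.39, 10.44 and 10.29 in DN4, 20.8-fold higher (SE 0.14, adjusted p = 2.2e-09). Themis, which sets signalling thresholds in thymocytes, read 4.14, 4.11 and 4.57 in LSK and 9.04, 8.86 and 9.16 in DN4, at least 11.9-fold higher (SE 0.15, adjusted p = 2.1e-09). The adaptor gene Lat read 9.81, 9.69 and 10.08 in LSK and 12.19, 12.20 and 12.28 in DN4, 5.14-fold higher (SE 0.13, adjusted p = 1.4e-07), starting from a signal LSK already had. No array of one group reached the other in these 3 genes. Trat1 (4.53, at least 10.5-fold), Grap2 (3.92), Sh2d1a (3.72, at least 6.2-fold), Rasgrp1 (3.21, at least 7.8-fold), which activates RAS, Ptpn22 (3.08) and Plcg1 (1.99) rose too. Vav1 (-0.11), Lcp2 (0.27) and Ptpn6 (0.05), used by many blood cells, did not pass.

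For the T lineage transcription factors, of 23 measured members (25 listed), 4 fell, 14 rose and 5 did not pass the test, with a median of 0.61. Bcl11b, which seals T lineage commitment, read 5.08, 4.88 and 4.59 in LSK and 9.85, 9.73 and 9.59 in DN4, at least 19.4-fold higher (SE 0.15, adjusted p = 1.4e-09). Ikzf3, which encodes Aiolos, read 5.49, 5.04 and 5.32 in LSK and 10.73, 10.65 and 10.55 in DN4, a difference of 5.36 (SE 0.14, adjusted p = 7.1e-10, LSK above background on 1 of 3 arrays). Lef1, a partner of beta-catenin, read 7.90, 8.09 and 6.59 in LSK and 11.97 ± 0.04 (SD, n = 3) in DN4, 21.7-fold higher (SE 0.31, adjusted p = 7.2e-07), with LSK replicate 3 the lowest. DN4 was far above LSK in each. Gata3 (2.58), Ets1 (2.48), Satb1 (2.49) and Tox (1.96), which act across early and later thymocyte stages, rose. Runx3, which acts in CD8 T cells, read 8.29, 8.26 and 8.33 in LSK and 6.86, 6.64 and 6.68 in DN4, 2.96-fold lower (SE 0.12, adjusted p = 1.6e-06). Zbtb7b, the CD4 lineage factor, differed by -0.18 and did not pass, and Rora fell to background (-0.84).

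For genes of the pre-T-cell receptor and of receptor gene recombination, of 7 measured members (14 listed), 0 fell, 6 rose and 1 did not pass the test, with a median of 1.44. Ptcra, the surrogate alpha chain of the pre-T-cell receptor, read 5.37, 6.04 and 5.64 in LSK and 8.93, 8.99 and 9.14 in DN4, 10.1-fold higher (SE 0.17, adjusted p = 5.3e-08). Arpp21, a gene of cortical thymocytes, read 5.28, 4.86 and 4.78 in LSK and 9.24, 8.80 and 8.95 in DN4, at least 11.7-fold higher (SE 0.17, adjusted p = 1.2e-08). Dntt, the enzyme that adds untemplated bases at receptor gene joints, read 9.0, 8.65 and 8.06 in LSK and 9.70, 9.51 and 9.76 in DN4, a difference of 1.09 (SE 0.20, adjusted p = 0.0021), with a clear signal in all LSK arrays. Rag2, a subunit of the recombinase, read 4.31, 3.65 and 4.09 in LSK and 5.15, 5.23 and 5.99 in DN4, a difference of 1.44 (SE 0.23, adjusted p = 5.9e-04, at least 1.01-fold), with only DN4 replicate 3 above background. Lig4, the ligase that closes the breaks, rose by 2.23 and Prkdc by 0.58. The Prkdc call ended without any 1 of LSK replicate 1, LSK replicate 3, DN4 replicate 1 or DN4 replicate 2 (adjusted p = 0.051 to 0.064).

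The late thymocyte genes were a mixture: Slamf6, Cd8b1 and Ccr4 were well above LSK, Cd4 and Cd8a only slightly, and S1pr1 and H2-K1 were lower. Of 24 measured members (27 listed), 6 fell, 11 rose and 7 did not pass the test, with a median of 0.31. Slamf6 read 7.0, 5.37 and 5.0 in LSK and 11.91, 11.90 and 11.88 in DN4, a difference of 6.11 (SE 0.39, adjusted p = 3.6e-07, LSK above background on 1 of 3 arrays), with LSK replicate 1 the highest of its group. Cd8b1, the CD8 beta chain, read 5.19, 4.85 and 5.63 in LSK and 8.48, 8.35 and 8.60 in DN4, a difference of 3.26 (SE 0.18, adjusted p = 1.3e-07, LSK above background on 1 of 3 arrays). The chemokine receptor gene Ccr4 read 4.82, 4.04 and 4.50 in LSK and 7.21, 7.36 and 7.41 in DN4, at least 3.68-fold higher (SE 0.18, adjusted p = 3.3e-07). DN4 arrays were even in all 3 and clear of LSK. Cd8a read 4.29, 4.40 and 4.65 in LSK and 5.22, 5.67 and 5.32 in DN4, and Cd4 4.66, 5.24 and 4.96 in LSK and 5.80, 5.58 and 5.82 in DN4, so both passed the test (0.96 and 0.78) with DN4 levels in or just above the background range. Lack of CD4 and CD8 defines the stage the DN4 label names. S1pr1, the receptor by which mature thymocytes leave, read 8.05, 8.13 and 9.44 in LSK and 5.93, 5.88 and 5.90 in DN4, 6.21-fold lower (SE 0.29, adjusted p = 4.1e-05). The MHC class I gene H2-K1, which rises with thymocyte maturation, read 10.84, 10.70 and 10.88 in LSK and 9.14, 9.12 and 9.26 in DN4, a difference of -1.63 (SE 0.12, adjusted p = 1.1e-06). Itgae (-1.12, at least 1.79-fold) and Gimap6 (-0.86) fell, while Il7r (2.41), Slamf1 (2.44) and Gimap4 (1.64) rose. Cd69, an early activation marker, read 9.42, 9.66 and 9.07 in LSK and 8.83, 8.53 and 8.58 in DN4, a difference of -0.74 (SE 0.16, adjusted p = 0.0055).

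Notch receptors and targets moved in both directions. Of 19 measured members (19 listed), 7 fell, 7 rose and 5 did not pass the test, with a median of -0.19. Among receptors, Notch3 read 5.34, 5.88 and 5.95 in LSK and 10.26, 10.42 and 10.05 in DN4, a difference of 4.52 (SE 0.17, adjusted p = 7.1e-09, LSK above background on 2 of 3 arrays), and Notch1 read 8.55, 8.53 and 7.66 in LSK and 11.19, 11.13 and 10.65 in DN4, 6.71-fold higher (SE 0.23, adjusted p = 4.2e-06). Notch2 read 10.41, 10.46 and 10.22 in LSK and 8.53, 8.63 and 8.38 in DN4, 3.6-fold lower (SE 0.13, adjusted p = 7.2e-07). DN4 and LSK did not overlap for any of the 3. Among targets, Dtx1 read 6.0, 5.93 and 6.45 in LSK and 10.27, 10.12 and 9.76 in DN4, a difference of 3.92 (SE 0.17, adjusted p = 2.1e-08), Heyl 5.64, 5.57 and 5.34 in LSK and 9.59, 9.67 and 9.07 in DN4, a difference of 3.93 (SE 0.17, adjusted p = 1.6e-08, LSK above background on 2 of 3 arrays), and Nrarp 6.49, 6.48 and 6.15 in LSK and 8.65, 8.33 and 8.07 in DN4, a difference of 1.97 (SE 0.17, adjusted p = 3.7e-06). Myc (-0.88) and Hey1 (-0.65, adjusted p = 0.0079) fell, and Hes5 did not pass (-0.19). Hes1 rose (0.50). Its call ended without any 1 of LSK replicate 1, LSK replicate 2, DN4 replicate 1 or DN4 replicate 2 (adjusted p = 0.079 to 0.13). The counts also hold Ptcra, which rose, and the sort marker gene Il2ra, which fell. The glycosyltransferase genes Lfng (-2.22) and Mfng (-1.55), which tune the choice of Notch ligand, fell. The RBPJ site GTGGGAA (reverse complement TTCCCAC) occurred in 6.38% of promoters (7.25% of genes) and in 2 of 13 list genes with one, Hes5 and Lfng.

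Against the other 4 fractions, DN4 had more Ptcra, Notch3, Dtx1, Heyl and Nrarp and less Dntt. Of the 86 measured T cell genes, 10 were higher and 3 lower in DN4, and of 19 Notch pathway genes, a list that also holds Ptcra and Il2ra, 5 were higher and 2 lower, while the targets Hes1, Hes5, Hey1 and Myc did not pass. Ptcra had means of 8.97 in DN3, 7.04 in DN2, 5.84 in DN1 and 8.08 in CLP and read 8.93, 8.99 and 9.14 in DN4, a difference of 1.54 (SE 0.13, adjusted p = 1.4e-06). Dtx1 had means of 10.19 in DN3, 8.73 in DN2, 7.21 in DN1 and 9.78 in CLP and read 10.27, 10.12 and 9.76 in DN4, a difference of 1.07 (SE 0.12, adjusted p = 5.8e-05). Heyl had means of 9.19 in DN3, 7.74 in DN2, 7.02 in DN1 and 8.59 in CLP and 9.45 in DN4, a difference of 1.31 (SE 0.16, adjusted p = 1.0e-04). In these genes DN1 and DN2 were the low fractions and DN3 lay next to DN4. Notch3 (1.16), Nrarp (1.09), Rag2 (1.15), Cd5 (0.91), Cd6 (0.83), Ikzf2 (0.76), Lef1 (0.75), Arpp21 (0.75), Lig4 (0.61), Slamf6 (0.60) and Fyn (0.48) were also higher. Rag2 was in the background range on most of these arrays. Dntt had means of 9.71 in DN3, 10.81 in DN2, 10.72 in DN1 and 10.02 in CLP and 9.66 in DN4, a difference of -0.66 (SE 0.11, adjusted p = 0.0026). Lfng (-0.82), Cd69 (-0.62) and Runx3 (-0.54) were lower too. Between DN4 and DN3 the difference was 0.05 for Ptcra (95% interval -0.30 to 0.39), -0.14 for Dtx1 (-0.48 to 0.19) and 0.26 for Heyl (-0.17 to 0.69). Without DN4 replicate 1, Cd6, Fyn, Runx3, Ikzf2, Arpp21, Lig4, Nrarp and Lfng did not pass (adjusted p = 0.053 to 0.16). Cd6, Runx3, Ikzf2, Lig4 and Cd69 did not pass without DN4 replicate 2 (adjusted p = 0.077 to 0.17). Without DN4 replicate 3, Fyn, Runx3, Arpp21, Lig4, Cd69 and Lfng did not pass (adjusted p = 0.061 to 0.17).

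**Figure D3:**
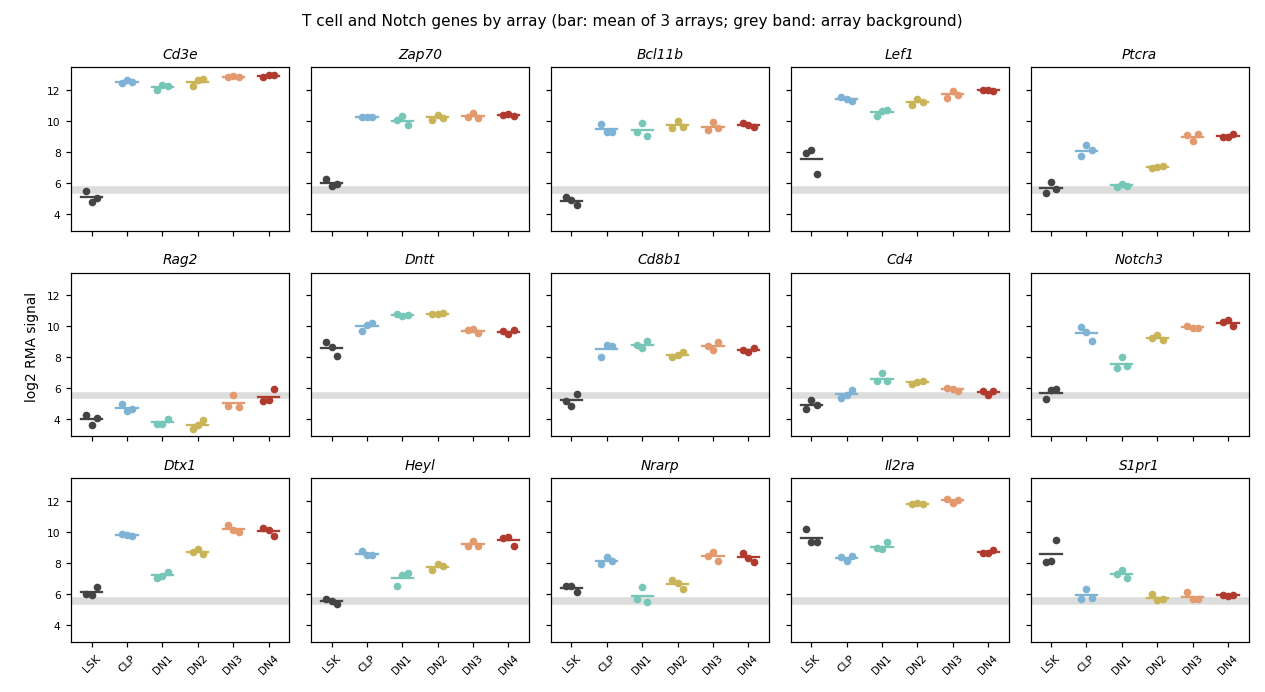
Log2 RMA signal (y axis) of 15 T cell and Notch pathway genes on each array, by group (x axis); each point is 1 array, bars are means of 3 arrays, and the grey band is the background range. Cd3e, Zap70 and Bcl11b are high in every lymphoma fraction, while Ptcra, Notch3, Dtx1, Heyl and Nrarp are highest in DN3 and DN4 and lowest in DN1 among the fractions, and Il2ra separates DN2 and DN3 from DN4.

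Of all genes whose 3 DN4 arrays lay outside the range of the other 12 lymphoma arrays, the one lowest in DN4 was Ifitm3, an interferon-induced membrane protein that restricts virus entry. It read 6.99, 6.87 and 7.35 in DN4 and 9.42, 9.30 and 9.56 in LSK, against 8.04 in DN3, 10.04 in DN2, 10.65 in DN1 and 9.75 in CLP, a difference from the other fractions of -2.55 (SE 0.13, adjusted p = 9.5e-09). Fmnl2, a formin that builds actin filaments, read 4.26, 4.54 and 4.35 in DN4 and had means of 4.91 in DN3, 7.66 in DN2, 7.59 in DN1 and 5.73 in CLP, a difference of -2.09 (SE 0.14, adjusted p = 1.4e-07, at least 1.87-fold). Anxa2, an annexin of the membrane, read 6.89, 6.57 and 6.91 against 7.37 in DN3, 8.71 in DN2, 9.11 in DN1 and 8.08 in CLP, a difference of -1.53 (SE 0.15, adjusted p = 5.9e-06). In all 3 genes DN3 was the next lowest fraction. The other 7 low genes were Atp8b4 (-1.73, at least 2.19-fold), Tnni2 (-1.56), Rbms1 (-1.34), Stx7 (-1.30), Cd80 (-1.18), Insl6 (-1.13) and Glul (-1.12), among them glutamine synthetase (Glul) and the costimulatory ligand gene Cd80. At the high end Sidt1, an RNA transporter gene, read 7.80, 7.73 and 7.94 in DN4 against 7.56 in DN3, 5.62 in DN2, 5.59 in DN1 and 6.72 in CLP, a difference of 1.45 (SE 0.14, adjusted p = 6.9e-06). Irs1, an adaptor of the insulin receptor, read 9.06, 9.10 and 8.97 against 8.76 in DN3, 7.24 in DN2, 7.21 in DN1 and 8.69 in CLP, a difference of 1.07 (SE 0.13, adjusted p = 1.1e-04). With Notch3 above, the remaining high genes were Dennd4a (1.36), Abi2 (0.75), Masp1 (0.75), Slc2a3 (0.73), Vwce (0.65), P2rx7 (0.64) and Stxbp4 (0.59), among them the glucose transporter gene Slc2a3 and the ATP-gated channel gene P2rx7. Fmnl2 and Atp8b4 were in background on all DN4 arrays, so their falls are known only as at least the fold given. Size and non-overlap chose these genes, so that they do not overlap is a description. In all, 436 genes were called. That count was 666 without CLP replicate 1, 213 without DN4 replicate 1, 245 without DN4 replicate 2 and 251 without DN4 replicate 3. Without DN4 replicate 1, Insl6, Masp1, Vwce, P2rx7 and Stxbp4 did not pass (adjusted p = 0.056 to 0.16). Insl6, Vwce, P2rx7 and Stxbp4 did not pass without DN4 replicate 2 (adjusted p = 0.056 to 0.31). Without DN4 replicate 3, Insl6, Masp1 and P2rx7 did not pass (adjusted p = 0.073 to 0.14). The Insl6 call also ended without any 1 of DN2 replicate 1, DN2 replicate 3 or DN3 replicate 3 (adjusted p = 0.052 to 0.054). The P2rx7 call also ended without DN3 replicate 1 (adjusted p = 0.051).

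**Figure D4:**
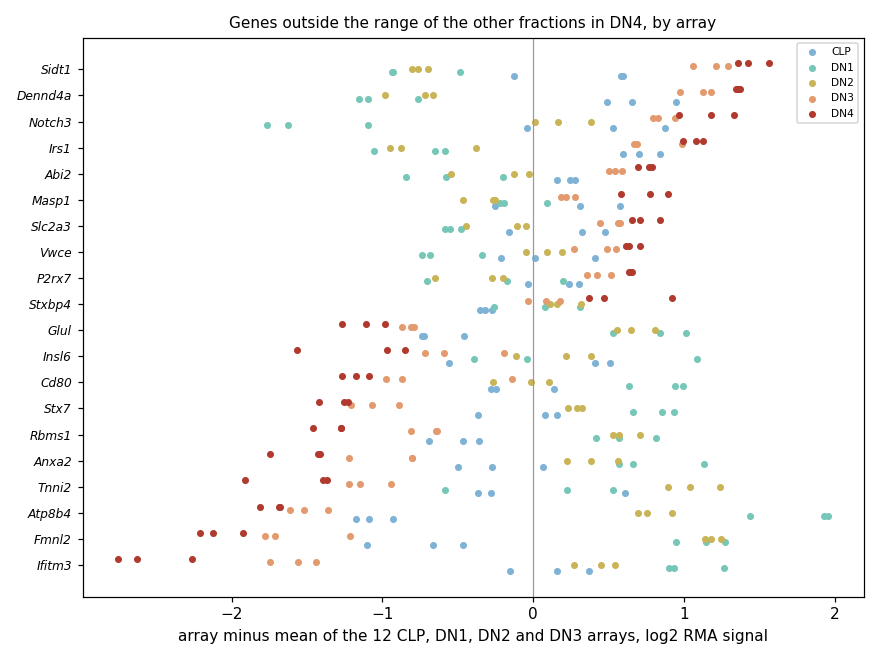
Signal of each lymphoma array minus the mean of the 12 CLP, DN1, DN2 and DN3 arrays (x axis, log2 RMA signal) for the 20 genes (rows) with the largest differences among those outside the range of the other fractions in DN4; each point is 1 array, coloured by fraction. DN4 points form the outer edge by the rule that chose the genes, and DN3 means lie nearest to the DN4 mean for 19 of the 20 genes.

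Against the CLP fraction alone, limma called 237 genes (1.07%), 160 higher and 77 lower in DN4. Quantile normalization moved that split to 117 higher and 116 lower. Ddx5, an RNA helicase gene, read 10.18, 10.11 and 10.51 in DN4 and 7.90, 5.81 and 7.87 in CLP, a difference of 3.07 (SE 0.41, adjusted p = 0.0011), with means of 10.27 in DN1, 10.46 in DN2 and 9.95 in DN3. CLP was the fraction that stood apart for this gene. Atp8a2, a lipid flippase gene, had means of 9.97 in DN3, 5.70 in DN2, 5.69 in DN1 and 8.29 in CLP and 10.12 in DN4, a difference of 1.83 (SE 0.22, adjusted p = 4.4e-04). B4galt1 (1.76), Smok4a (1.89) and Zfp709 (1.61) were the other genes named as higher. Ifitm3 (-2.68), Ctla2a (-2.11, at least 2.9-fold), Scrg1 (-1.95), the calcium-binding gene S100a6 (-1.78, at least 2.08-fold) and the galectin gene Lgals1 (-1.77) were lower in DN4. Lgals1 read 5.69, 5.71 and 6.19 in DN4, 7.12, 7.93 and 7.84 in CLP and 9.67, 9.72 and 8.71 in LSK, with DN4 next to background. Cdkn1a differed between DN4 and CLP by -0.86 (adjusted p = 0.019). The CLP arrays were uneven: the count was 1217 without CLP replicate 1 and 407 without CLP replicate 3, and 65, 72 and 73 without DN4 replicate 1, 2 and 3. The Smok4a call ended without any 1 of CLP replicate 2, CLP replicate 3, DN4 replicate 1, DN4 replicate 2 or DN4 replicate 3 (adjusted p = 0.083 to 0.2).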

How the data were processed

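RNA of 18 samples, 3 each of healthy LSK cells and of the CLP, DN1, DN2, DN3 and DN4 lymphoma fractions, was hybridised to 1-colour oligonucleotide arrays. The deposited values are log2 signals, which the authors made with RMA in the oligo package per the submitters' processing notes, whose versions are not given in the sources used here; RMA shrinks differences of dim genes. Arrays give no read depth, so their number limits the precision. Probe sets were named through the platform's annotation: of 41345, 23521 had 1 symbol, 1814 several and 16010 none. Only those with 1 symbol were used, and the brightest by mean over all arrays stood for each of 22180 genes, 1082 of which had several. Among named genes, dimmer probe sets of Slc7a11, Slc2a1, Irs1, Sidt1, Gata3, Irf8 and Sdc1 showed little or none of the difference.

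Differences were tested two-sided with limma 3.58.1 (R 4.3.3; lmFit, eBayes, Benjamini-Hochberg adjustment over all genes, called at 0.05): DN4 against LSK on 6 arrays, and DN4 against the mean of the other 4 fractions, DN3 and CLP on the 15 lymphoma arrays. The fits were also tested on simulated data, in which each gene had the same spread in every group. Members and gene lists were chosen with earlier results of these data known; of 490 list genes 437 were matched. Named genes were the 10 called genes with the largest change each way among those whose groups do not overlap (5 each way for DN3 and CLP), any member of the stress, T cell and Notch lists, and up to 4 members with the smallest p of each other list. The choice by size passed over gene models named only by prediction or clone, genes of small RNAs, receptors for odours or pheromones, and segments of antigen receptor genes. Motifs were searched with Python 3.11.15 in RefSeq promoters. Whether replicate numbers pair arrays was looked at by the correlation of deviations from the group means. It was 0.11, 0.108 and 0.273 for DN4 and DN3, and 0.123, 0.121 and 0.135 for DN4 and DN1. For DN4 and DN2 it was 0.08, 0.121 and 0.346, and for DN4 and CLP 0.169, 0.025 and 0.289. For DN4 and LSK, from other mice, it was 0.084, 0.011 and 0.12. Arrays of unlike number were not compared, so these values do not settle whether the numbers pair arrays. The main fits used no pairing. Alternatives were a filter on low values, quantile normalization, the mean of probe sets, all arrays in 1 model, a trended robust prior, no X and Y genes, no CLP arrays, the replicate number as a block, and leaving out each array.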

Additional observations from a re-analysis of the deposited data

Results flagged for a closer look

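The results below differ between lymphoma fractions by a test of the difference itself: limma called them between DN4 and the mean of CLP, DN1, DN2 and DN3, which is the same as a difference between their distances from LSK. Each value is DN4 minus that mean on the log2 scale. Groups of 3 arrays are too small to look for single outlying arrays.

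Among stress genes, the values were Jun (-0.79), Junb (-0.80), Klf6 (-0.51), Sgk1 (-1.29), Xbp1 (-0.55), Mt1 (-0.48), Fth1 (-0.41), Cdkn1a (-0.74), Fas (-0.76), Gadd45b (-0.73), Gadd45g (-1.13) and Bhlhe40 (-0.78), all lower in DN4. The stress genes higher in DN4 were Plk2 (1.56) and Ndrg1 (0.89). Among T cell genes, Ptcra (1.54), Rag2 (1.15), Lig4 (0.61), Arpp21 (0.75), Cd5 (0.91), Cd6 (0.83), Fyn (0.48), Lef1 (0.75), Ikzf2 (0.76) and Slamf6 (0.60) were higher, and Dntt (-0.66), Runx3 (-0.54) and Cd69 (-0.62) lower. In the Notch pathway list, Notch3 (1.16), Heyl (1.31), Dtx1 (1.07) and Nrarp (1.09) were higher, and Lfng (-0.82) and Il2ra (-1.59) lower, the last encoding CD25, on which the fractions were sorted.

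Of the genes whose DN4 arrays lay outside the range of all other lymphoma arrays, those lower in DN4 were Ifitm3 (-2.55), Fmnl2 (-2.09), Atp8b4 (-1.73), Tnni2 (-1.56), Anxa2 (-1.53), Rbms1 (-1.34), Stx7 (-1.30), Cd80 (-1.18), Insl6 (-1.13) and Glul (-1.12). Fmnl2 and Atp8b4 were in background on all DN4 arrays, so only a lower bound of their falls is measured. Those higher, beside Notch3, were Sidt1 (1.45), Dennd4a (1.36), Irs1 (1.07), Abi2 (0.75), Masp1 (0.75), Slc2a3 (0.73), Vwce (0.65), P2rx7 (0.64) and Stxbp4 (0.59).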

How the results depend on the processing

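The count of genes called between DN4 and LSK (5908) stayed within 1.5 times of itself under every alternative run, from 4766 to 6098. No called gene turned in direction in a comparison for which it was chosen and re-run. The calls of Ly6c2, H2-Aa, H2-Ab1 and Icos against the other fractions, and of Cdkn1a against CLP, were not re-run. Leaving out 1 array gave 4766 to 5591 calls for DN4 against LSK, 213 to 666 for DN4 against the other fractions (436 with all arrays), 1 to 2 against DN3 (1) and 65 to 1217 against CLP (237). Without all CLP arrays, 880 genes were called against the remaining fractions. With the replicate number as a block, 6098 genes were called against LSK, 517 against the other fractions, 1 against DN3 and 360 against CLP. Under the block Atf3 lost its call against LSK (adjusted p = 0.056), and Fas and Xbp1 theirs against the other fractions (adjusted p = 0.051 to 0.058); the causes were not tested. Counted over named genes and alternatives, the comparison with LSK lost 105 calls and gained 24, that with the other fractions lost 88, and that with CLP lost 7. With all 18 arrays in 1 model, Fth1, Lef1 and Slamf6 were not called against the other fractions (adjusted p = 0.071 to 0.37). The same model lost 15 named calls against LSK (adjusted p = 0.052 to 0.24). These were Ccr7, Ccr9, Cd1d1, Egr3, Eif2ak3, Gadd45g, Gars, Hes1, Hsf2, Nfe2l2, Numb, Prkdc, Syvn1, Tcf3 and Tmsb10. Signals in the background range limit the depth to which a fall can be measured.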

Other observations

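Over all genes 14.9% fell and 11.8% rose from LSK to DN4, and the list counts below are read against these shares. Stem and progenitor genes were nearly all lower in DN4 than in LSK: 23 fell and 1 rose of 27 measured (median -2.30), and 14 of the 23 that fell were in background in DN4. Cd34, a surface protein of progenitors, read 11.20, 11.03 and 11.08 in LSK and 4.90, 5.60 and 5.18 in DN4 (SE 0.17, adjusted p = 9.3e-10, DN4 above background on 1 of 3 arrays). Erg, a transcription factor of stem cells, read 8.66, 8.34 and 8.65 in LSK and 4.46, 4.59 and 4.23 in DN4 (SE 0.14, adjusted p = 3.6e-09, at least 7.91-fold), and Lyl1 9.60, 9.60 and 9.51 in LSK and 6.37, 6.25 and 6.25 in DN4 (SE 0.12, adjusted p = 3.9e-09). The member that rose was Slamf1 (2.44), which T cells also express. Granulocyte and mast cell genes fell with them (10 fell and 1 rose of 18 measured (median -1.71)), led by Elane (-4.86), Mpo (-5.12, at least 28.6-fold), Csf3r (-4.42, at least 14.1-fold) and Prtn3 (-4.08). So did erythroid and megakaryocyte genes (6 fell and 0 rose of 9 measured (median -1.40)), such as Car1 (-2.97, at least 3.53-fold), Itga2b (-1.95) and Pf4 (-3.18, at least 5.96-fold), and macrophage genes (9 fell and 2 rose of 14 measured (median -1.02)), such as Csf1r (-2.67, at least 5.94-fold), Cd14 (-2.34, at least 2.18-fold) and Lyz2 (-2.46, at least 3.78-fold). Ly6c2 fell too (-2.97), and was also lower in DN4 than in the other fractions (-1.80, adjusted p = 2.6e-04).

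Antigen presentation genes differed within their class. In the MHC class II list 6 fell and 1 rose of 8 measured (median -0.96). H2-Ab1 read 10.77, 10.16 and 10.56 in LSK and 5.71, 6.58 and 6.28 in DN4, H2-Aa 8.49, 7.88 and 8.37 in LSK and 5.03, 4.93 and 4.98 in DN4, whereas H2-Oa, a chain of the regulator of peptide loading, rose from 6.80, 6.42 and 6.45 to 9.20, 9.23 and 9.19 (SE 0.13, adjusted p = 5.6e-08). H2-Aa, in background on all DN4 arrays, and H2-Ab1 were also lower in DN4 than in the other fractions (-0.51 and -1.20, adjusted p = 0.044 and 0.0015). Neither call was re-run with single arrays left out. Of the type I interferon response genes, 7 fell and 1 rose of 13 measured (median -0.53): Ifit1 (-1.68, at least 1.95-fold), Rsad2 (-1.36) and Stat2 (-1.30) fell and Usp18 rose (0.96). Of cell cycle genes 0 fell and 11 rose of 24 measured (median 0.30), led by the DNA synthesis genes Tk1 (1.04), Tyms (0.74), Cdt1 (0.81) and Mcm2 (0.85). Against the same LSK arrays the median of this list was 0.63 in CLP, 0.05 in DN1, 0.75 in DN2 and 0.66 in DN3. DN4 was the highest fraction for 0 of the 11 genes that rose.

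Genes linked to NPM-ALK and STAT3 were divided: 14 fell and 4 rose of 28 measured (median -0.35). Pdgfrb, a receptor kinase gene, read 8.34, 7.79 and 7.68 in LSK and 12.76, 12.67 and 12.41 in DN4 (SE 0.18, adjusted p = 6.6e-09), and Tnfrsf8, which encodes CD30, 5.96, 5.12 and 5.63 in LSK and 10.57, 10.54 and 10.14 in DN4 (SE 0.20, adjusted p = 1.4e-08, LSK above background on 2 of 3 arrays). Icos, a costimulatory receptor gene, rose (1.73, LSK above background on 2 of 3 arrays) and was higher than in the other fractions (1.01, adjusted p = 0.0084). Pdgfrb is also a stromal gene. Of the stroma and thymic epithelium list 1 fell and 2 rose of 15 measured (median 0.07), the other rise being Col1a2 (1.68), and Epcam fell (-0.66). With 14.9% of all genes lower and 11.8% higher, these counts are not read as a result about the list. Among B and plasma cell genes, 3 fell and 1 rose of 14 measured (median -0.21): Jchain (-3.73, at least 4.76-fold) and Cd79b (-1.39, at least 1.72-fold) fell and Sdc1 rose (2.20, LSK above background on 2 of 3 arrays). In the dendritic cell list 5 fell and 2 rose of 12 measured (median -0.33), with Flt3 (-4.06, at least 11.5-fold), Irf8 (-2.49) and Itgax (-1.63, at least 1.67-fold) the largest falls. In the NK and cytotoxic list 7 fell and 2 rose of 17 measured (median -0.29): Ccl5 (-3.53), Klrd1 (-2.25, at least 1.51-fold) and Nkg7 (-2.01) fell while Gzma rose. The count of rises in that list was near the share over all genes. The part of other cell types in these differences was not tested.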
